A study of Mus musculus with 6 samples.

Results

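Purinergic receptors and ectonucleotidases were followed through the cells of the mouse cortex after ischemic stroke. The 10 genes were P2ry12, P2ry13, P2ry6, P2ry14, P2rx4, P2rx7, Entpd1, Nt5e, Adora1 and Adora2a, taken by gene symbol from the 32285 genes of the count matrix, and all 10 had UMI counts in the cells. A UMI (unique molecular identifier) count is the number of different captured RNA molecules of a gene in a cell. The cells came from male RGS5::GFP mice of 8 to 12 weeks on the C57bl/6 background, all heterozygous for a reporter in which GFP replaces one Rgs5 allele, after permanent occlusion of the distal middle cerebral artery. Cortices of the ipsilateral and contralateral hemispheres were taken at 1, 12 and 24 h, dissociated with enzymes, depleted of neurons and sorted for live cells, which gave 6 groups with 1 library each. Every mouse carried the reporter and the occlusion, so the contralateral cortex was the only comparison tissue. The methods of the study name fewer mice for single-cell sequencing than there were libraries, so some libraries shared a mouse. By the sample labels the libraries at 12 h were made with another version of the kit than those at 1 and 24 h, whereas the methods of the study name a single kit, and by those methods the libraries at 24 h were read on another sequencer (HiSeq) than the others (NOVA-seq). The barcodes of the matrix carry library numbers 1 to 6, and neither the labels nor the files give the hemisphere or time of a number. Libraries were not assigned to groups by the cells they held, since that would sort them by the outcome. The values below are therefore given by library number, without a comparison of conditions and without a test.

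Nucleotides that leave stressed or dying cells act as signals in the brain. ATP opens P2X channels, and ADP, UDP and UDP-sugars act on G protein-coupled P2Y receptors. Enzymes on the cell surface then degrade the nucleotides, Entpd1 (CD39) from ATP and ADP to AMP and Nt5e (CD73) from AMP to adenosine, and adenosine acts on its own receptors. In the brain the pathway is best known in microglia, whose processes move towards sources of ATP and ADP through P2ry12.

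After filtering, 17357 cells were left, 1221 to 5873 per library, with a median of 5053 to 5660.5 UMIs per cell and 12427757 to 40793772 UMIs per library. Only 26 cell barcodes were found in more than one library. The cells formed 30 clusters, built without the 10 genes and 26 other purinergic genes, and 26 of them took one of 14 names from standard markers. Because the names were rebuilt from markers, each class is called "-like". The largest were microglia-like cells (7855 cells), oligodendrocyte-like cells (2782), endothelial-like cells (2675), astrocyte-like cells (1163) and pericyte-like cells (884). Of blood-derived and border cells there were 376 monocyte-derived macrophage-like, 178 neutrophil-like, 133 dendritic-like, 123 perivascular macrophage-like and 55 B lymphocyte-like cells. The rest were 334 neuroblast-like, 258 smooth muscle-like, 31 fibroblast-like and 22 choroid plexus-like cells. The 4 clusters left without a name held 488 cells.

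Levels are given as CPM, the UMIs of a gene divided by all UMIs of the cells of a class and multiplied by 1000000. A class called highest in a library was set only against classes with at least 20 cells there. Perivascular macrophage-like cells reached this number in libraries 3, 4 and 5 only. Intervals are exact 95% intervals that cover counting error only, since each group had 1 library. The counts come from the 3′ end of transcripts, so levels of different genes are not compared with each other.

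P2ry14, P2ry13 and P2ry12 are neighbours on chromosome 3, all read from the minus strand and all lying inside Med12l on the opposite strand (chr3:59005825-59318682, GRCm38). P2ry14 lies at chr3:59113855-59153618, P2ry13 at chr3:59207892-59210882 and P2ry12 at chr3:59216272-59262871. Their proximal promoters are shown because neighbours in the genome came out in different cells, P2ry12 and P2ry13 in microglia-like and P2ry14 in pericyte-like cells. The windows are the 250 bases before the RefSeq transcript start on the minus strand of GRCm38.p6, at chr3:59262986-59263235 for P2ry12, chr3:59210883-59211132 for P2ry13 and chr3:59153493-59153742 for the first of 4 starts of P2ry14. Capitals mark AGGAAGT (a form of the ETS family motif), GAGGAA (the core of the PU.1 motif) and TGANTCA (the AP-1 motif), searched on both strands.
P2ry12: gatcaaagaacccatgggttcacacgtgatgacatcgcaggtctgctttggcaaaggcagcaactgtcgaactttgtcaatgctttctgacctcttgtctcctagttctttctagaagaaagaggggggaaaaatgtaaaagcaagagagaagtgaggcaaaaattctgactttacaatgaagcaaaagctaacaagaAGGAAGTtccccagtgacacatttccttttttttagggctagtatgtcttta
P2ry13: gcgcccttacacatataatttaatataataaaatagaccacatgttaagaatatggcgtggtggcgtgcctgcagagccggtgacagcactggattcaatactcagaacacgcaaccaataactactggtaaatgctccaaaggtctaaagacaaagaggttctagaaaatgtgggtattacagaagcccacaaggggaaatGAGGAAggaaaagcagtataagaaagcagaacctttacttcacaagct
P2ry14: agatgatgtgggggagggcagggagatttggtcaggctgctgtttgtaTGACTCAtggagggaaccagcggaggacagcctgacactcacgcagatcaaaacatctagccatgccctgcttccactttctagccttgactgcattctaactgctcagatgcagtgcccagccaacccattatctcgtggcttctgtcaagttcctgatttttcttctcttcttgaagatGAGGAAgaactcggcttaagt

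The P2ry12 window held AGGAAGT 52 bases before the start, and the P2ry13 window held GAGGAA 48 bases before it. The P2ry14 window held GAGGAA 21 bases and TGANTCA 202 bases before its start. Of the 32851 promoter windows of the same length, 7.69% held AGGAAGT, 23.3% held GAGGAA and 6.75% held TGANTCA, so that the PU.1 form is common by its letters alone. A match describes the letters and is not a bound site. Med12l itself had 34.7 CPM in microglia-like and 8.29 CPM in pericyte-like cells, and if counting ignored strand its reads could not be told apart from those of the 3 receptors. RefSeq windows were matched for 8 of the 10 genes, with none for P2ry6 and Adora2a.

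Each gene had its own place among the cell classes. P2ry12, P2ry13 and P2ry6 were highest in microglia-like cells, P2rx4 and P2rx7 in perivascular macrophage-like cells, P2ry14 and Adora2a in pericyte-like cells and Adora1 in oligodendrocyte-like cells. Entpd1 was high in both microglia-like and neutrophil-like cells, and Nt5e was at or under 29.3 CPM in every named class. Microglia-like cells were the highest class by at least 2-fold for 2 of the 10 genes, P2ry12 and P2ry13, against 1.96% of the 12888 genes with at least 200 UMIs.

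**Figure D1:**
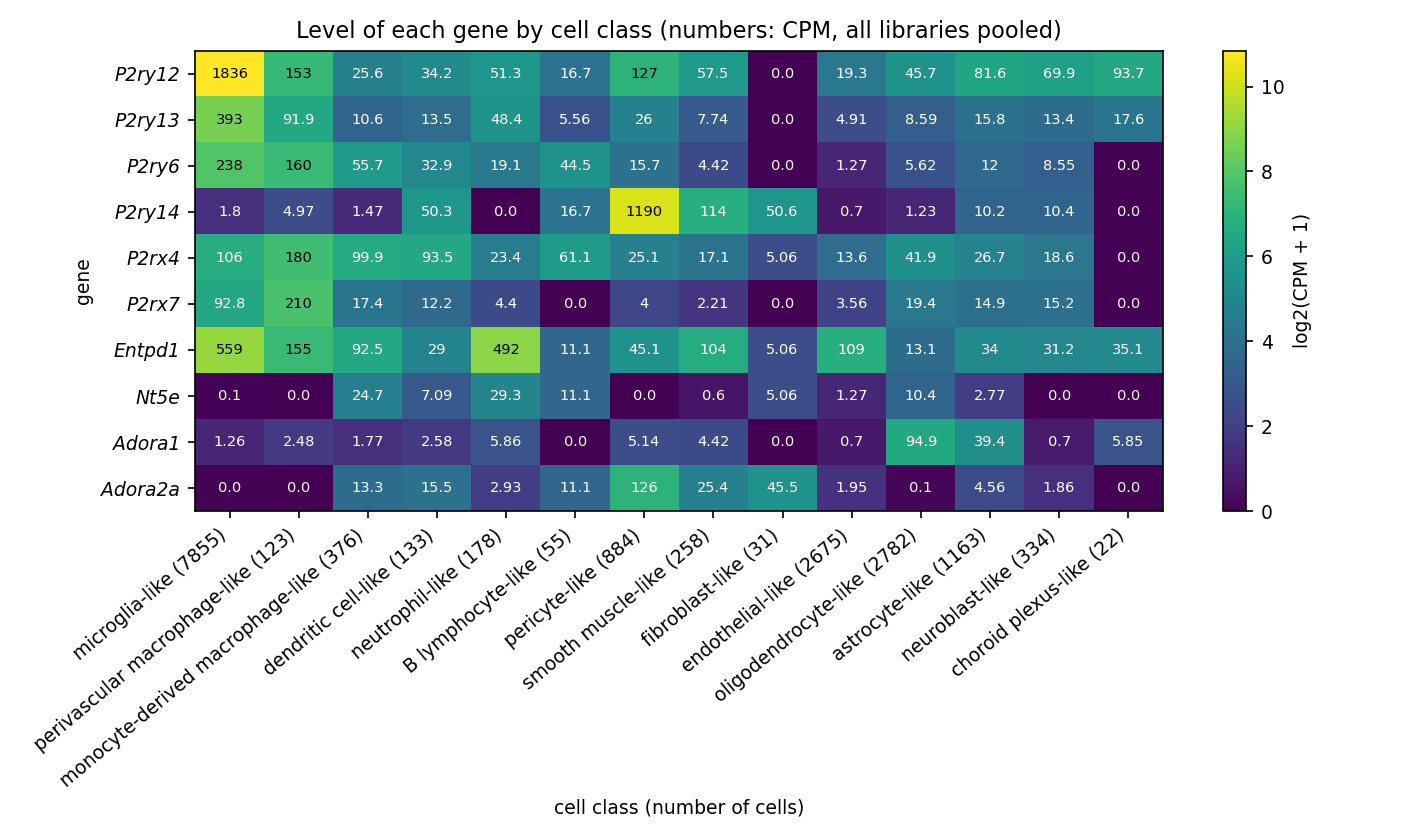
Level of the 10 genes (rows) in the 14 named cell classes (columns, with the number of cells), all libraries pooled. Colour is log2(CPM + 1) and the printed numbers are CPM. P2ry12 reaches 1836 CPM in microglia-like cells and P2ry14 1190 CPM in pericyte-like cells, while Nt5e stays at or under 29.3 CPM in every named class.

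P2ry12, the ADP receptor that marks resting microglia, reached 1836 CPM in microglia-like cells (95% interval 1823 to 1848). The next class, perivascular macrophage-like cells, had 153 CPM, a ratio of 12.0 (10.1 to 14.5), and microglia-like cells were the highest class in 6 of 6 libraries. Of all P2ry12 UMIs in cells, 94.5% lay in microglia-like cells. P2ry12 was seen in 94.0% of microglia-like cells (median 5234 UMIs per cell), and in 3.03% of endothelial-like cells (median 4001 UMIs), a class that should lack it. With every cell thinned to 1000 UMIs these shares were 75.2% and 0.673%.

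P2ry13, a second ADP receptor, followed the same classes at 393 CPM in microglia-like and 91.9 CPM in perivascular macrophage-like cells, a ratio of 4.28 (3.41 to 5.45). Microglia-like cells were again highest in 6 of 6 libraries. P2ry6, the UDP receptor linked to phagocytosis, was shared more evenly between both macrophage types of the brain, with 238 CPM in microglia-like and 160 CPM in perivascular macrophage-like cells. The ratio was 1.49 (1.25 to 1.78), and without library 4 it was 1.19. In libraries 3, 4 and 5, which each held at least 20 perivascular macrophage-like cells, its lowest value was 1.05. Libraries 1, 2 and 6 held 6, 8 and 31 P2ry6 UMIs in such cells, and no ratio was taken there. Monocyte-derived macrophage-like cells followed with 55.7 CPM of P2ry6, below perivascular macrophage-like cells beyond counting error.

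P2ry14, the receptor for UDP-glucose, was highest in pericyte-like cells. It reached 1190 CPM there (1154 to 1226) against 114 CPM in smooth muscle-like cells, the other mural cells of the vessel wall, a ratio of 10.4 (9.04 to 12.0). Pericyte-like cells were highest in 6 of 6 libraries and held 88.6% of all P2ry14 UMIs. Fibroblast-like cells (50.6 CPM) and dendritic-like cells (50.3 CPM) came next and did not differ beyond counting error. P2ry14 was seen in 89.6% of pericyte-like cells (median 3426.5 UMIs) and 0.299% of endothelial-like cells, and after thinning in 67.0% and 0.0374%. Endothelial-like cells touch pericytes in the vessel and had more UMIs per cell than they did. Their low share is the background in 1 class only. In astrocyte-like clusters of 724 and 439 cells, P2ry14 was seen in 6.22 and 5.24% of cells, and after thinning in 0.967 and 1.14%.

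The channels P2rx4 and P2rx7 lie side by side on chromosome 5, at chr5:122707544-122729738 and chr5:122643911-122691432 (GRCm38, plus strand). P2rx4, an ATP-gated channel found on the surface and in lysosomes of macrophages, had 180 CPM in perivascular macrophage-like and 106 CPM in microglia-like cells, a ratio of 1.70 (1.43 to 2.0). With libraries pooled, microglia-like cells did not differ beyond counting error from monocyte-derived macrophage-like cells (99.9 CPM), nor the latter from dendritic-like cells (93.5 CPM). Most monocyte-derived macrophage-like cells lay in libraries 4 and 6. There P2rx4 was higher in microglia-like cells, at 106 against 83.1 CPM and 149 against 109 CPM. P2rx7, the channel that triggers release of interleukin-1 when ATP is high, had 210 CPM in perivascular macrophage-like and 92.8 CPM in microglia-like cells, a ratio of 2.26 (1.93 to 2.64). Oligodendrocyte-like cells came next with 19.4 CPM, and monocyte-derived macrophage-like cells had 17.4 CPM, far below the macrophages that reside in the brain.

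Libraries 3, 4 and 5 each held at least 20 perivascular macrophage-like cells. In them P2rx7 was at 150, 117 and 184 CPM in perivascular macrophage-like cells and at 99.1, 68.1 and 118 CPM in microglia-like cells. P2rx4 was at 173, 134 and 202 CPM against 86.2, 106 and 125 CPM. Perivascular macrophage-like cells were the higher of the 2 classes in 3 of 3 libraries for both channels. These values rest on only 36, 35 and 28 such cells. The smallest ratio to the next class was 1.26 for P2rx4 and 1.51 for P2rx7. The pooled P2rx7 level of 210 CPM was above each of these 3, and without library 6, which held fewer than 20 such cells, the pooled ratio was 1.80. When the purinergic genes were kept among the clustering genes, the class grew to 258 cells, no dendritic-like class was left, and the P2rx7 ratio was 0.856.

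Entpd1, the enzyme that removes ATP and ADP, had 559 CPM in microglia-like and 492 CPM in neutrophil-like cells, a ratio of 1.14 (1.02 to 1.27). Neutrophils reach the brain from blood, and libraries 3, 4 and 6 held at least 20 such cells. There Entpd1 was at 500, 578 and 402 CPM in neutrophil-like cells and at 759, 461 and 191 CPM in microglia-like cells. The order of the 2 classes thus turned between libraries, and without library 3 the pooled ratio was 0.877. Perivascular macrophage-like cells followed with 155 CPM, endothelial-like cells with 109 CPM and smooth muscle-like cells with 104 CPM. Entpd1 was seen in 85.0% of microglia-like, 75.3% of neutrophil-like (median 3126 UMIs) and 3.81% of oligodendrocyte-like cells, and after thinning in 42.8%, 36.5% and 1.26%.

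Within the endothelium Entpd1 was uneven. In an endothelial-like cluster of 302 cells led by Gkn3, Bmx and Sema3g, genes known from arteries, Entpd1 had 219 CPM against 82.3 CPM in the largest endothelial-like cluster, a ratio of 2.66 (2.33 to 3.04). It was higher in 5 of 5 libraries with at least 20 cells, at 106 to 245 CPM against 61.8 to 98.2 CPM, though in libraries 1 and 4 the interval included equality. P2ry12 was higher in the same cluster, at 82.8 against 8.27 CPM, and the part of microglial RNA in the Entpd1 value was not tested.

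Nt5e, which makes adenosine from AMP, had 458 UMIs in all cells together, and its order among classes rests on few molecules. It had 29.3 CPM in neutrophil-like and 24.7 CPM in monocyte-derived macrophage-like cells, a ratio of 1.18 with an interval of 0.689 to 1.95 that includes equality. In monocyte-derived macrophage-like cells it was at 7.31 CPM (8 UMIs) in library 4 and 34.5 CPM (76 UMIs) in library 6. The ratio was 0.663 without library 4 and 4.40 without library 6. An unnamed cluster of 95 cells led by Ccl5, Gzma and Trbc2, genes of cytotoxic lymphocytes, had 67.3 CPM. Oligodendrocyte-like cells held most Nt5e UMIs (263) at 10.4 CPM.

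The 2 enzymes of the chain were spread differently over the cells. Their overlap is given as counts, which were not set against the overlap that each enzyme's own share would give. In microglia-like cells, 6676 of 7855 cells had an Entpd1 UMI and 4 had an Nt5e UMI. In oligodendrocyte-like cells the order was the other way, with 106 cells with Entpd1 and 234 with Nt5e among 2782, and 11 with both. Most of the 331 Entpd1 UMIs of this class lay in a cluster of 247 cells with 711 CPM of P2ry12. Of its barcodes 27.5% were called as 2 cells. In the 2 largest oligodendrocyte-like clusters Entpd1 was at 1.72 and 0.509 CPM. Among 178 neutrophil-like cells 134 had Entpd1, 15 had Nt5e and 14 had both. With Entpd1 in 134 of the 178 cells, most cells with Nt5e would have both by that share alone. Monocyte-derived macrophage-like cells had 148 cells with Entpd1, 53 with Nt5e and 15 with both among 376. No Nt5e UMI was seen in 884 pericyte-like cells, which allows a share of up to 0.339% of cells with a UMI.

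Adora1, the inhibitory adenosine receptor, is best known from neurons, which were depleted here. Among the cells left it had 94.9 CPM in oligodendrocyte-like and 39.4 CPM in astrocyte-like cells, a ratio of 2.41 (2.13 to 2.73), with oligodendrocyte-like cells highest in 6 of 6 libraries. In oligodendrocyte-like cells of libraries 1 to 6 it was at 93.7, 90.1, 90.0, 96.4, 92.2 and 119 CPM. The level of the class was thus nearly flat, with library 6 the highest. A cluster of 137 such cells led by Serpina3n, Il33 and Btc, found in libraries 4 and 6 only, was lower. It had 56.3 and 64.8 CPM, against 105 and 166 CPM in the oligodendrocyte-like cluster that was largest over all libraries. In library 6 that cluster held 51 cells, and its 166 CPM had an interval of 124 to 216. Another oligodendrocyte-like cluster held more cells of library 6 (132) and had 124 CPM. In astrocyte-like cells Adora1 was at 32.9, 29.3, 28.6, 46.7, 34.7 and 81.4 CPM. Libraries 4 and 6 had the highest values there, but library 5 held only 32 such cells. Free RNA, read from barcodes with few UMIs, held 52.1 CPM of Adora1, above the 39.4 CPM of astrocyte-like cells. In libraries 1 to 6 its Adora1 level was 39.1, 57.3, 39.9, 51.8, 58.1 and 68.2 CPM, also highest in library 6. The part of free RNA in the astrocyte-like values was not tested. Adora1 was seen in 54.1% of oligodendrocyte-like cells (median 8875 UMIs), 18.7% of astrocyte-like cells (median 5593 UMIs) and 0.624% of microglia-like cells, and after thinning in 8.81%, 3.70% and 0.102%. The 3′ end of Adora1 overlaps Mybph on the opposite strand, which had 0.713 CPM in oligodendrocyte-like cells.

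Adora2a, the stimulatory adenosine receptor known from striatal neurons, blood vessels and leukocytes, had 126 CPM in pericyte-like and 45.5 CPM in fibroblast-like cells, a ratio of 2.77 (1.44 to 6.09). Pericyte-like cells held 67.8% of its 650 UMIs. They were highest in 6 of 6 libraries among classes with at least 20 cells, which fibroblast-like cells reached in no library. Smooth muscle-like cells had 25.4 CPM. It was seen in 37.8% of pericyte-like and 0.0255% of microglia-like cells, and after thinning in 12.7% and in 0 of the cells.

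The 6 genes of microglia-like cells did not vary together across libraries. In libraries 1 to 6 P2ry12 was at 1746, 1681, 2401, 1286, 2681 and 844 CPM, a ratio of highest to lowest of 3.18 (3.07 to 3.28). Library 5 was highest and library 6 lowest, with library 4 next to it. Entpd1 was at 532, 665, 759, 461, 552 and 191 CPM, a ratio of 3.98 (3.75 to 4.23), and again library 6 was lowest and library 4 next. P2ry13 was at 355, 391, 433, 330, 499 and 345 CPM, and P2ry6 at 172, 253, 232, 268, 194 and 240 CPM.

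P2ry6 was highest in library 4, where P2ry12 was low. P2rx4 was at 102, 97.2, 86.2, 106, 125 and 149 CPM, and here library 6 was the highest rather than the lowest. P2rx7 was at 117, 82.4, 99.1, 68.1, 118 and 105 CPM. A difference of at least 2-fold between the highest and the lowest library was thus seen for 2 of these 6 genes, P2ry12 and Entpd1, against 32.9% of the 8140 genes at or above 10 CPM in microglia-like cells, so a 2-fold range was common among all genes. These ranges were not read against hemisphere or time, for which the libraries were not assigned here.

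**Figure D2:**
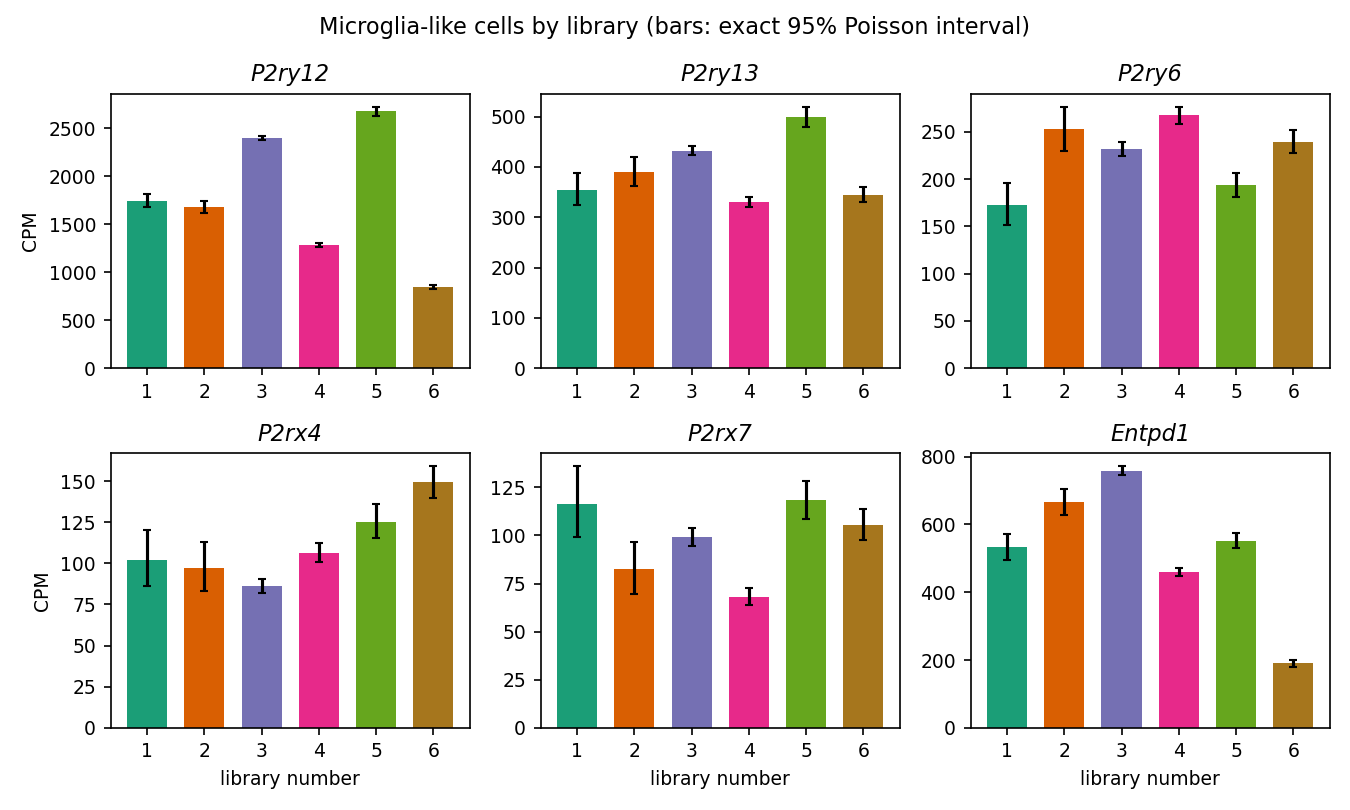
Level (CPM, linear axis from 0) of P2ry12, P2ry13, P2ry6, P2rx4, P2rx7 and Entpd1 in microglia-like cells of libraries 1 to 6, with exact 95% Poisson intervals. P2ry12 and Entpd1 are lowest in library 6 (844 and 191 CPM), where P2rx4 is highest (149 CPM).

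Libraries 4 and 6, the lowest in P2ry12 and Entpd1, held most of a microglia-like cluster of 1455 cells led by Lpl, Gpr84 and Mmp12. The share of microglia-like cells in this cluster was 0, 0.796, 0.555, 37.5, 1.34 and 62.4% in libraries 1 to 6. P2ry6 and P2rx7 did not follow this share. In this cluster 7 of 9 homeostatic microglia genes were at least 2-fold lower than in the largest microglia-like cluster, with a sum of 13441 against 28462 CPM. At least 2-fold higher were 9 of 10 activation genes (16633 against 2067 CPM). The cluster was picked by its sum of Lpl and Gpr84, and both are among these 10 genes. Markers of monocyte-derived macrophages summed to 42.0 CPM there and to 4502 CPM in the monocyte-derived macrophage-like cluster.

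The ADP receptors and Entpd1 were low in the Lpl and Gpr84 cluster. P2ry12 had 464 CPM against 2655 CPM in the largest cluster, a ratio of 0.175 (0.170 to 0.180), at 478 against 2277 CPM within library 4 and 414 against 2523 CPM within library 6. Entpd1 had 150 against 739 CPM, a ratio of 0.203, at 181 against 740 CPM and 99.3 against 438 CPM within the same libraries. P2ry13 was closer to equal, with 247 against 498 CPM and a ratio of 0.495. The sizes depended on how finely the cells were clustered, from 0.0224 at a higher to 0.238 at a lower resolution for P2ry12, from 0.0708 to 0.625 for P2ry13 and from 0.0443 to 0.237 for Entpd1, with all 3 below 1 in every setting run.

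P2ry6 had 239 against 333 CPM (ratio 0.717) and was lower within both libraries, at 249 against 375 and 226 against 386 CPM. At a lower clustering resolution, with fewer and larger clusters, the P2ry6 ratio was 1.34, so its direction depends on how the cluster is drawn. It also depends on the cluster set against it. A microglia-like cluster of 2278 cells had 235 CPM of P2ry6, with 297 and 266 CPM in libraries 4 and 6. A microglia-like cluster of 1486 cells, described below, was under the Lpl and Gpr84 cluster, with 122 and 186 CPM in these libraries. P2rx4 had 139 against 92.1 CPM (ratio 1.5) and was higher within both, at 121 against 88.1 and 159 against 98.4 CPM. P2rx7 was lower in library 4, at 50.6 against 85.0 CPM, but not in library 6, at 97.0 against 84.1 CPM. In library 6 the largest cluster had 53 P2rx7 UMIs, and its interval of 63.0 to 110 CPM held the 97.0 CPM. The pooled P2rx7 ratio was 0.784, and 1.03 without library 4. The clusters were drawn from other genes of the same cells, so these contrasts describe the clusters and are no test.

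At least 2-fold lower in the Lpl and Gpr84 cluster were 3 of the 6 genes (P2ry12, P2ry13 and Entpd1), against 11.4% of 8197 genes, and 0 of 6 were at least 2-fold higher, against 8.81% of those genes. P2ry13 lay at this limit and was past it in some settings only, at 0.537 with the mean of each cell's own CPM, which leaves 2 of the 6. The median log2 ratio was -0.72 over the 6 genes and -0.09 over all genes tested.

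**Figure D3:**
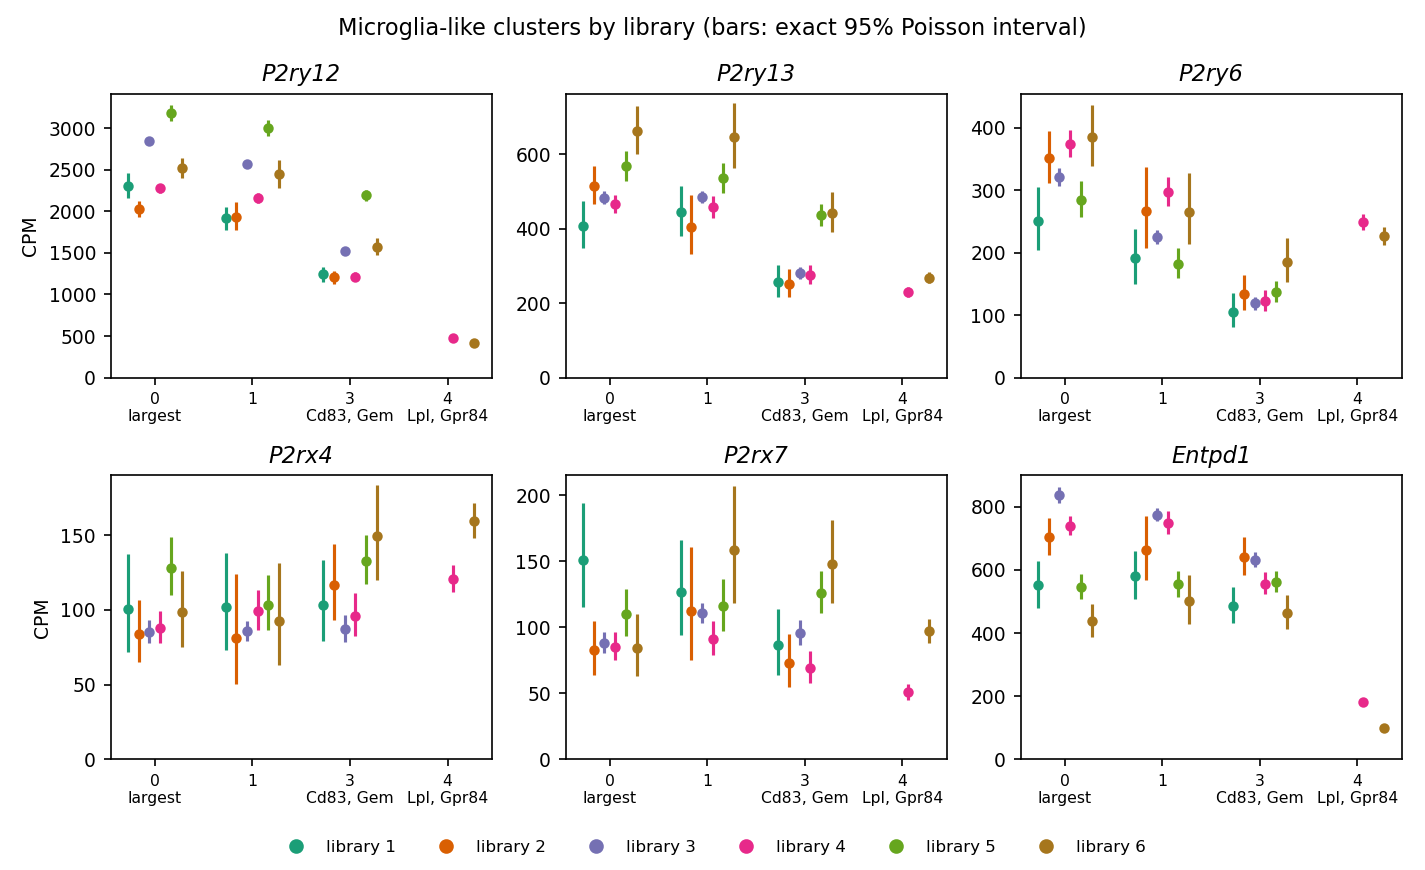
Level (CPM, linear axis from 0) of the 6 genes in 4 microglia-like clusters, with 1 point per library that held at least 20 cells of the cluster and exact 95% Poisson intervals. In the cluster of Lpl and Gpr84 (number 4, libraries 4 and 6) P2ry12 is at 478 and 414 CPM, below every library of the other clusters, while P2rx4 is at 121 and 159 CPM.

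The same contrast was visible in single cells. P2ry12 was seen in 69.4% of cells of the Lpl and Gpr84 cluster (median 6835 UMIs), and after thinning in 32.0%, against 88.9% in the largest cluster (median 4345 UMIs). Neither P2ry12 nor P2ry13 was seen in 320 cells of the Lpl and Gpr84 cluster (22.0%) and in 6 cells of the largest (0.231%), although the former had more UMIs per cell. Entpd1 was seen in 50.3% against 91.8% of cells.

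Within the largest microglia-like cluster, which every library shared, P2ry12 was at 2308, 2027, 2850, 2277, 3182 and 2523 CPM in libraries 1 to 6. Library 6 was no longer the lowest. P2ry13 was at 407, 515, 483, 466, 567 and 663 CPM there, with library 6 the highest. Entpd1 was at 551, 703, 837, 740, 547 and 438 CPM, and library 6 remained the lowest.

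Another microglia-like cluster, of 1486 cells led by Cd83, Gem and Atf3, was present in all libraries. It was picked as the microglia-like cluster with the highest sum of 9 immediate-early genes, so their high level there is no finding. These genes rise within minutes of a stimulus and also during enzymatic dissociation. All 9 were at least 2-fold higher there than in the largest cluster (32903 against 3452 CPM). The part of the dissociation in the values was not tested. P2ry6 was at 127 against 333 CPM, a ratio of 0.382 (0.358 to 0.407), and was lower in 6 of 6 libraries, at 105 to 186 against 251 to 386 CPM. P2ry12 had a ratio of 0.589, P2ry13 of 0.637 and Entpd1 of 0.793, while P2rx4 (1.14) and P2rx7 (1.07) were close to equal. Of the 6 genes, P2ry6 thus had the lowest ratio in this cluster and P2ry12 in the cluster of Lpl and Gpr84.

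Among pericyte-like cells P2ry14 was at 1336, 1246, 1519, 1007, 1021 and 563 CPM in libraries 1 to 6, a ratio of highest to lowest of 2.70 (2.39 to 3.05). Library 6 was lowest, with its interval below those of the other 5. Adora2a was at 141, 80.4, 153, 122, 117 and 79.4 CPM, with libraries 2 and 6 at nearly the same low level. In smooth muscle-like cells P2ry14 stayed between 99.9 and 144 CPM.

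The low value of library 6 went together with a small pericyte-like cluster of 62 cells led by Ccl11, Il11 and Ednrb. It held 28 cells of library 4 (18.7% of its pericyte-like cells) and 34 of library 6 (28.8%), and none of the other libraries. P2ry14 was low there, with 56.9 CPM against 1323 CPM in the large pericyte-like cluster, a ratio of 0.0430 (0.0266 to 0.0658), which was 0.181 with 20 principal components in place of 30. Within library 4 it was at 29.8 against 1350 CPM, and within library 6 at 79.6 against 849 CPM. Adora2a had 43.4 against 136 CPM, a ratio of 0.319 (0.181 to 0.525), and was lower within both libraries, at 47.7 against 148 and 39.8 against 103 CPM.

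The other pericyte-like cells of library 6, at 849 CPM of P2ry14, were also below those of library 4. Of the 8 pericyte markers, 5 were at least 2-fold lower in the Il11 cluster, with a sum of 9119 against 30419 CPM, and none was at 0. Of the 7 smooth muscle markers 6 were at least 2-fold lower (331 against 2314 CPM). The 7 fibroblast markers summed to 1577 against 212 CPM, with 2 at least 2-fold lower, 2 at least 2-fold higher and 3 at 0 in each cluster. The part of these shifts in the P2ry14 value was not tested. At least 2-fold lower were 2 of 7 purinergic genes tested, P2ry14 and Adora2a, against 18.9% of 8672 genes. The median log2 ratio was 0.03 over the 7 genes and -0.13 over all genes. Without barcodes called as 2 cells, P2ry12 fell from 126 to 8.41 CPM and Entpd1 from 45.0 to 2.68 CPM in the large cluster. P2ry13 fell from 25.2 to 2.29, P2ry6 from 14.7 to 1.53 and P2rx4 from 25.6 to 23.7 CPM. P2ry14 rose from 1323 to 1478 and Adora2a from 136 to 147 CPM. The part of these barcodes in the count and the median was not tested. At a lower clustering resolution the 62 cells were not split from the other pericyte-like cells.

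**Figure D4:**
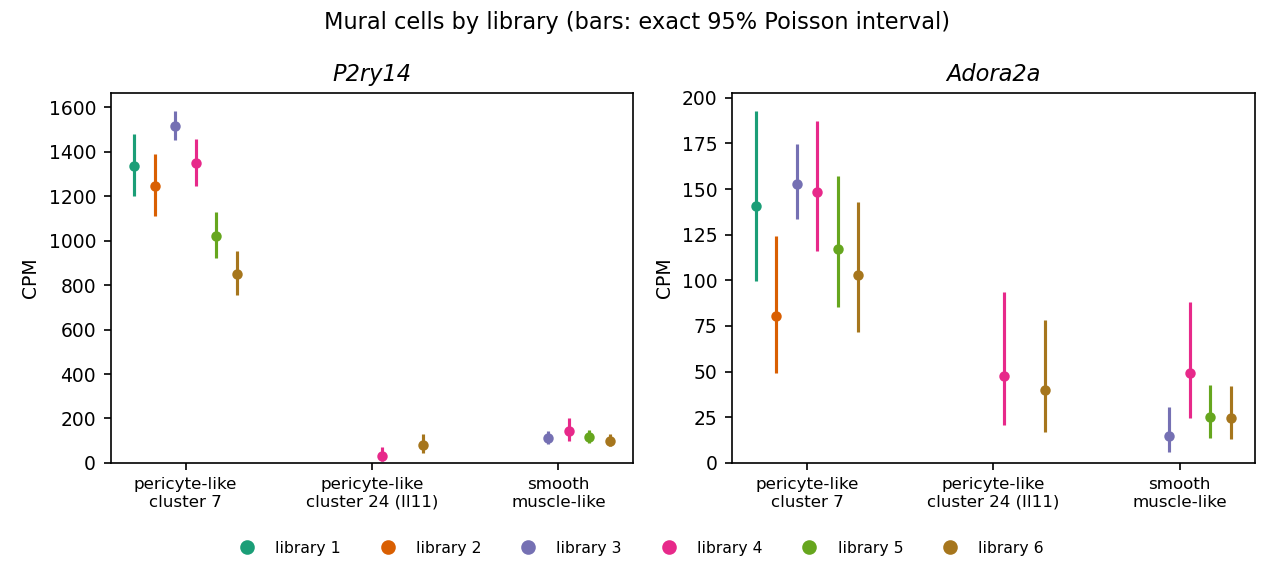
Level (CPM, linear axis from 0) of P2ry14 and Adora2a in both pericyte-like clusters and in smooth muscle-like cells, with 1 point per library that held at least 20 cells and exact 95% Poisson intervals. P2ry14 is at 29.8 and 79.6 CPM in the Il11 cluster (libraries 4 and 6), and between 99.9 and 144 CPM in smooth muscle-like cells.

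P2ry12 UMIs outside microglia-like cells were set beside those of free RNA, read from barcodes with 1 to 50 UMIs. Free RNA held 405 CPM of P2ry12 (151 to 670 CPM by library), 125 CPM of Entpd1, 97.9 CPM of P2ry13, 19.5 CPM of P2ry14 and 3.74 CPM of Adora2a. Adora1 was at 52.1 CPM in it. Pericyte-like cells had 127 CPM of P2ry12, and 23.8 CPM once barcodes called as 2 cells (doublets) were left out. In oligodendrocyte-like cells it was at 45.7 and 15.4 CPM, and in astrocyte-like cells at 81.6 and 32.0 CPM, with and without doublets. Leaving out doublets raised P2ry14 in the large pericyte-like cluster, from 1323 to 1478 CPM.

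The number of P2ry12 UMIs per P2ry13 UMI was then compared within libraries, since it differed between them. In microglia-like cells it was 4.92, 4.31, 5.55, 3.90, 5.37 and 2.45 in libraries 1 to 6, and in free RNA it was 4.34, 3.92, 4.82, 3.85, 4.84 and 2.10. Library 6 was lowest and library 4 next in both, and libraries 3 and 5 were the highest in both. In pericyte-like cells the ratio was 5.27 in library 3 and 3.89 in library 4, and in oligodendrocyte-like cells it was 6.28 and 4.03, each with an interval that held the microglial value of the library. In these classes and libraries the ratio thus did not differ from the microglial one beyond counting error. These intervals were wide, at 2.33 to 6.83 for pericyte-like cells of library 4. The source of the P2ry12 UMIs outside microglia-like cells was not tested.

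Perivascular macrophage-like cells had a lower ratio, at 1.78 (0.968 to 3.36) in library 3, 2.0 (1.09 to 3.82) in library 4, 1.80 (1.01 to 3.28) in library 5 and 1.05 (0.533 to 2.08) in library 6. In 4 of 4 libraries the interval lay below that of all microglia-like cells or, in library 4, below their value of 3.90. The Lpl and Gpr84 cluster alone held 2800 P2ry12 and 1343 P2ry13 UMIs in library 4 and 1951 and 1259 in library 6. Its ratio lay within the perivascular macrophage-like interval in both libraries. In neutrophil-like cells the ratio was 2.40 (1.11 to 5.62) in library 4 and 0.444 (0.167 to 1.07) in library 6. Of these 2 libraries, library 6 lay below microglia-like cells. The pooled ratio of monocyte-derived macrophage-like cells, 2.42, was also below the pooled microglial 4.67, yet within libraries 4 and 6 it was 3.0 (1.53 to 6.33) and 2.22 (1.33 to 3.8), with intervals that held the microglial values.

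P2ry12 UMIs per P2ry6 UMI gave a wider difference. In microglia-like cells of libraries 4 and 6 the ratio was 4.80 and 3.52, and in free RNA 4.0 and 3.32. It was 1.62 (0.913 to 2.94) and 0.645 (0.349 to 1.17) in perivascular macrophage-like cells, and 1.0 (0.612 to 1.63) and 0.338 (0.241 to 0.467) in monocyte-derived macrophage-like cells. Both macrophage classes thus held more P2ry6 per P2ry12 than all microglia-like cells or free RNA of their own library. The Lpl and Gpr84 cluster alone held 2800 P2ry12 and 1457 P2ry6 UMIs in library 4, a ratio within the perivascular macrophage-like interval there. In library 6, with 1951 and 1067 UMIs, its ratio lay above the intervals of both macrophage classes.

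**Figure D5:**
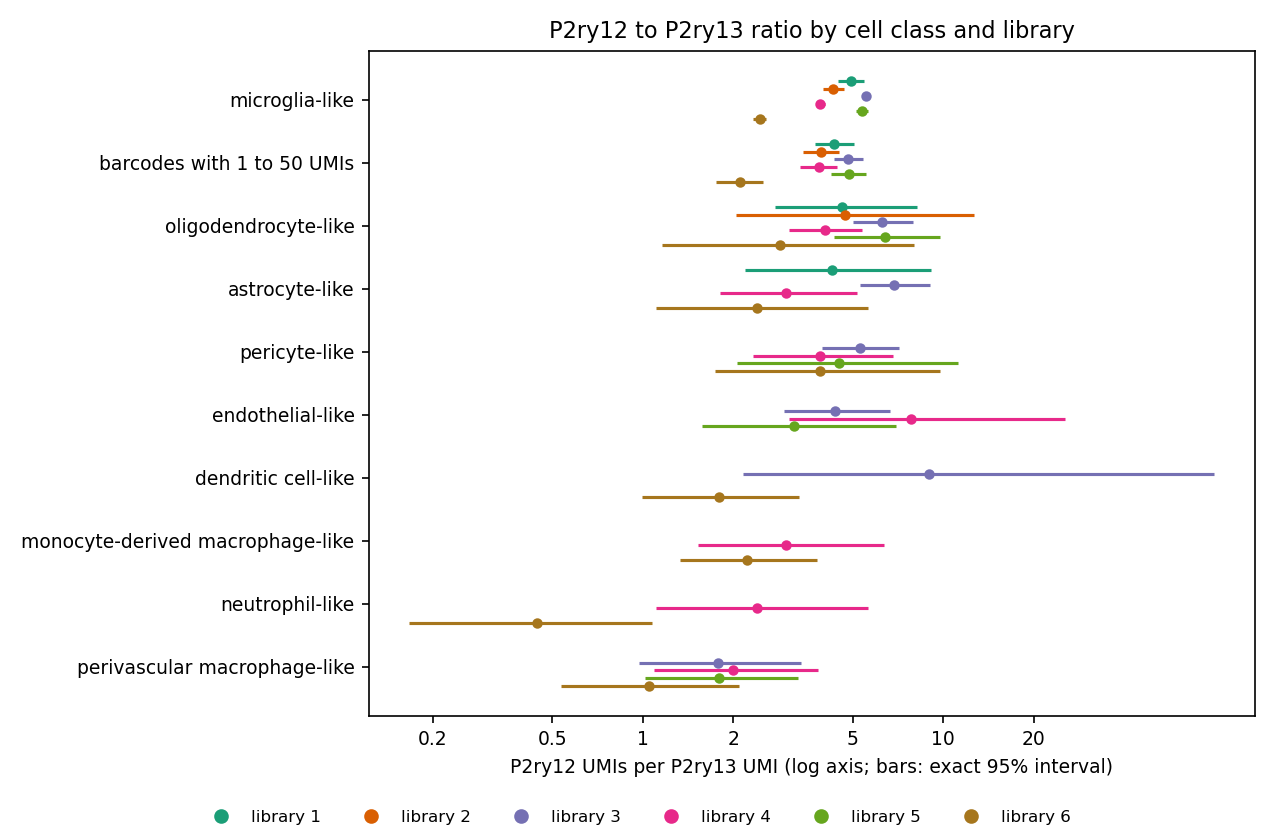
P2ry12 UMIs per P2ry13 UMI (log axis) by cell class and, as free RNA, in barcodes with 1 to 50 UMIs, with 1 point per library with at least 20 such UMIs and exact 95% intervals. Microglia-like cells and free RNA are lowest in library 6 (2.45 and 2.10), and perivascular macrophage-like cells lie at 1.05 to 2.0.

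The genes most alike in pattern were found by Pearson correlation of log2(CPM + 10) over the 12 classes with at least 50 cells, as a description. Gpr34 came closest to P2ry12 (r = 0.995), with Crybb1 (0.975) and Mlxipl (0.974) next, and Tgfbr1 to P2ry13 (0.981). P2ry14 was closest to S1pr3 (0.949), a receptor for sphingosine 1-phosphate, and to Rem1 (0.940) and Adora2a (0.937), and Adora2a was closest to P2ry14. Olfml1 (0.990) came closest to Adora1, Ly86 (0.965) to P2ry6, Tent5a (0.949) to P2rx4, Slc9a9 (0.931) to P2rx7, Tlr4 (0.886) to Entpd1 and Gpat3 (0.887) to Nt5e. With a pseudocount of 1 CPM, none of the 3 closest genes stayed among the 3 closest for P2ry14 and P2rx7.

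The other 26 genes of the pathway were spread over more classes, and 17 of them had at least 200 UMIs. Of these 17, 4 were highest in fibroblast-like cells, 3 in astrocyte-like cells, 2 in microglia-like cells and 2 in neutrophil-like cells. The fibroblast-like class had 31 cells, and these 4 genes had 22 to 76 UMIs there. The share of all genes that were highest in each class was not taken, so these counts are a description only. Only Adora3, a further adenosine receptor, was highest in microglia-like cells by at least 2-fold, at 99.5 CPM against 11.1 CPM in the next class. Of the enzymes, Entpd2, which stops at ADP, had 131 CPM in astrocyte-like cells, and Enpp2 had 4643 CPM in choroid plexus-like and 1513 CPM in oligodendrocyte-like cells. Adk, which removes adenosine by phosphorylation, was highest in astrocyte-like cells at 264 CPM, and Ada, which deaminates it, reached 26.2 CPM in oligodendrocyte-like cells. Alpl, a phosphatase that can also make adenosine from AMP, had 197 CPM in fibroblast-like and 48.8 CPM in endothelial-like cells.

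Cd38, which degrades NAD, was highest in perivascular macrophage-like cells (233 CPM), and its relative Bst1 in neutrophil-like cells (204 CPM). Adora2b, the low-affinity adenosine receptor, had 111 CPM in fibroblast-like, 94.0 CPM in monocyte-derived macrophage-like and 63.2 CPM in astrocyte-like cells. Among the other P2 receptors, P2ry10 was highest in B lymphocyte-like cells (133 CPM), P2ry2 in neutrophil-like cells (33.7 CPM) and P2rx1 in smooth muscle-like cells (22.1 CPM). No UMI of P2ry4 or Entpd8 was seen in any cell.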

How the data were processed

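The authors deposited 1 matrix of whole-number UMI counts, which per the file headers was made with Cell Ranger 5.0.1, with barcodes numbered by library from 1 to 6. The labels name build mm10. By the methods of the study, the libraries were joined with the aggregation step of Cell Ranger to even out sequencing depth, which takes reads from deeper libraries, so the counts are those left after this step. Whether strand was used in counting is not given in the sources used here. The members and lists were chosen with earlier results of these data known.

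In each library the 3000 deepest barcodes were taken, and cells were barcodes with more UMIs than 0.1 times their 99th percentile, at least 200 detected genes and at most 10% mitochondrial counts. Counts were scaled to 10000 per cell and log-transformed. The 2000 most variable genes, without 36 purinergic genes, gave 30 principal components, a graph of 20 neighbours and Leiden clusters at resolution 0.8 (leidenalg 0.10.2, igraph 0.11.9, scikit-learn 1.9.0, scipy 1.17.1, Python 3.11.15). Simulated doublets (expected rate 6%) marked 328 cells (1.89%), which were kept unless stated. A cluster was named when at least 3 markers of a class were 2-fold over the median cluster and the class led by at least 1 on the log2 scale. No name was given where hemoglobin genes led (294 cells), where over 50% of cells were doublets (70 and 29 cells) or where the lead was smaller (95 cells). No purinergic gene served as a marker.

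CPM were computed from UMIs summed over the cells of a class. Intervals are exact Poisson for CPM, exact conditional binomial for ratios and Clopper-Pearson for shares, at 95%. The limit for a share of 0 is 3 counts of the total. With 1 library per group and no map from library to group, no test was made. Scripts were tested on simulated data. Named genes were all members, the 26 other pathway genes, the 3 genes closest to each member, markers, the fixed lists and the 3 leading genes of each cluster described.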

Additional observations from a re-analysis of the deposited data

How the results depend on the processing

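Results were recomputed with the study's looser cell filter alone, other resolutions and 20 components, without doublets, with a mean of each cell's own CPM, with the purinergic genes kept among the variable genes, and leaving out each library in turn. Of the ratios between classes and clusters, 172 recomputed values moved by less than their counting interval, 58 moved by more and 4, of ratios whose interval excluded 1.0, turned direction, and the cause was not tested. With the looser filter the ratio of the highest to the next class was 9.96 for P2ry12 and 7.05 for P2ry14, and the ratio of the Lpl and Gpr84 cluster to the largest was 0.188 for P2ry12, 0.991 for P2ry6 and 0.683 for P2rx7. With purinergic genes kept, the class ratios were 24.8 for P2ry12, 9.84 for P2ry13, 3.13 for P2ry6, 1.15 for P2rx4 and 0.856 (turned) for P2rx7, and the cluster ratios were 0.0581, 0.121, 0.439, 1.88, 0.697 and 0.0870 for P2ry12, P2ry13, P2ry6, P2rx4, P2rx7 and Entpd1. With the mean of cells' own CPM, P2rx7 had a class ratio of 2.65, and the cluster ratios were 0.194, 0.537, 0.775 and 0.224 for P2ry12, P2ry13, P2ry6 and Entpd1. At resolution 0.4 the cluster ratios were 0.238 for P2ry12, 0.625 for P2ry13, 1.34 (turned) for P2ry6, 0.702 for P2rx7 and 0.237 for Entpd1, and the Il11 cells were not split off, which set P2ry14 and Adora2a at 1.0. At resolution 1.2 they were 0.0224, 0.0708, 0.611, 1.91, 0.566 and 0.0443 in the order of the 6 genes above, and with 20 components 0.0270, 0.109, 0.410, 1.82, 0.709 and 0.0495, with P2ry14 at 0.181 in the Il11 cluster.

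Leaving out 1 library, the class ratios ranged from 10.2 to 13.1 for P2ry12, 4.14 to 4.91 for P2ry13, 1.19 to 1.64 for P2ry6, 8.35 to 11.2 for P2ry14, 1.53 to 1.88 for P2rx4, 1.80 to 2.55 for P2rx7, 0.877 (without library 3, turned) to 1.52 (without library 4) for Entpd1, 0.663 (without library 4, under 1.0) to 4.40 for Nt5e, whose interval included 1.0, 2.12 to 2.62 for Adora1 and 1.87 to 4.27 for Adora2a. The cluster ratios ranged from 0.161 to 0.189 for P2ry12, 0.472 to 0.525 for P2ry13, 0.692 to 0.752 for P2ry6, 1.33 to 1.71 for P2rx4, 0.567 to 1.03 (without library 4, turned) for P2rx7 and 0.155 to 0.251 for Entpd1, and in the Il11 cluster from 0.0216 to 0.0604 for P2ry14 and 0.298 to 0.357 for Adora2a. No paired analysis was possible because neither the labels nor the files assign the numbered libraries to groups. Small classes and few UMIs, above all for Nt5e, limit what could be seen.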

Other observations

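An unnamed cluster of 294 cells led by hemoglobin genes had 1176 CPM of P2ry12, 700 CPM of Entpd1 and 157 CPM of P2rx7. Microglia was its best-scoring class, with 8 microglia markers raised. The cluster was left unnamed only because hemoglobin genes led. Its P2ry12 to P2ry13 ratio was 3.39 (2.93 to 3.93). It entered no class above.

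In the Il11 cluster of pericyte-like cells, 49 P2ry12 UMIs were seen, all in library 4, which amounts to 292 CPM in that library. The same 28 cells held 12 P2ry13, 9 P2ry6 and 16 Entpd1 UMIs. Of the barcodes of the whole Il11 cluster, 1.61% were called as 2 cells. The part of microglial RNA in these counts was not tested. An interferon-induced microglia-like cluster of 39 cells, led by Ifit3, Ifit2 and Rsad2, had 1591 CPM of P2ry12, 540 CPM of Entpd1 and 146 CPM of P2rx4.

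Adora2a had 28.6 CPM and P2ry10 133 CPM in the unnamed cluster of 95 cells led by Ccl5, Gzma and Trbc2. Entpd3 had 24 UMIs in all cells, of which 22 lay in neutrophil-like cells, and P2ry1 had 160 UMIs, with 80.9 CPM in fibroblast-like cells as its highest class.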
